A study of Mus musculus with 32 samples.

Results

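*Rbpj* and 6 genes for proteins that act with it were followed in mouse embryonic stem cells (ESCs). The genes were chosen by name, and 7 of 7 were found in a count table of 51826 genes. RBPJ is the DNA-binding protein of the Notch pathway. Without a Notch signal it holds target genes down together with corepressors, and when a Notch receptor is cleaved, its intracellular domain binds RBPJ and recruits a Mastermind-like coactivator. The coactivators are encoded by *Maml1*, *Maml2* and *Maml3*. On the repressive side, *Spen* encodes a large RNA-binding corepressor that contacts RBPJ, *L3mbtl3* a methyl-lysine reader that interacts with RBPJ, and *Ncor1* a scaffold of histone deacetylase complexes. The study asked how RBPJ, ETV5 and TCF3 contribute when ESCs leave the naive state.

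All cells derive from RGd2 ESCs, which carry a destabilized GFP reporter at the *Rex1* locus. RGd2 cells were sequenced in 2i (an inhibitor of MEK with the GSK3 inhibitor Chiron), in 2i for 5 passages, in Chiron alone at passage 2 (CHp2), and 16 h and 72 h after transfer to N2B27 without inhibitors (N16h and N72h). *Rbpj*-KO and *Etv5*-KO lines were sequenced in 2i and at N16h, lines without *Etv5* and *Rbpj* (ER-dKO) in Chiron at passage 5, and lines without *Etv5*, *Tcf3* and *Rbpj* (ETR-tKO) in N2B27 at passage 5. There are 32 libraries in 11 conditions, 3 in each except *Etv5*-KO at N16h, which has 2. Group sizes follow the labels, although the methods name RGd2 at N16h as the condition with 2 replicates. Mutant libraries of a condition come from different clonal lines made with pairs of guide RNAs, whereas each RGd2 condition holds 1 library of a clonal line and 2 of the parental line, which nothing shows to be more than separate samples of it. The ETR-tKO lines (Tc1)ERc2 and (Tc1)ERc10 share the prefix (Tc1) and may share a parental clone. The tests treat them as separate lines. The methods state that lines were kept in Chiron with LIF and then moved to 2i before withdrawal assays.

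Libraries held 5986857 to 71439411 counts on genes, with the lowest number in RGd2 2i replicate 33, a control of several comparisons below. Replicate 33 also differed most from its partners. Its chi-square per gene, on counts relative to library totals, was 44.3 to replicate 31 and 43.3 to replicate 32, the highest of any pair within a condition. Between RGd2 2i replicates 31 and 32 it was 8.43. Summed over 7 naive markers, FPKM (counts per kilobase of a gene's length, scaled to the counts on genes of its library) lay between 851.7 and 910.4 in RGd2 in 2i and between 55.2 and 59.2 at N72h, and over 5 formative markers between 42.3 and 48.8 and between 505.7 and 520.5. *Etv5* had 15475 ± 1338 (SD, n = 3) spike-in-scaled counts in RGd2 in 2i and 2241 ± 146 (SD, n = 3) in *Etv5*-KO in 2i. *Tcf7l1*, the current symbol of *Tcf3*, had 516 ± 67.2 (SD, n = 3) in RGd2 in 2i for 5 passages and 85.4 ± 49.2 (SD, n = 3) in ETR-tKO.

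The guide RNAs used against *Rbpj* are shown because they define which part of the gene was removed. Both match the minus strand of chromosome 5 (GRCm38), in exons 5 and 7 of the 11 exons of transcript Rbpj-201, and are written 5′ to 3′ with the PAM in capitals.
exon 5 guide: tgacctttatccgcttgctgAGG
exon 7 guide: gcttgacagtctgcccgtaaTGG
With its PAM, the exon 5 guide covers chr5:53645977-53645999 and the exon 7 guide chr5:53649715-53649737. The expected cuts lie between bases 53645982 and 53645983 and between bases 53649720 and 53649721, which are 3738 bases apart. Between them lie 258 exonic bases, a multiple of 3, in each of the 5 protein-coding transcripts that hold both sites. Of the 12750 bases over which *Rbpj* fragments were counted, 2.02% lie between the cuts. The total count of *Rbpj* is thus almost entirely a count of sequence outside the deletion, and by itself it does not check the genotype.

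*Rbpj* (ENSMUSG00000039191.12, GRCm38 chromosome 5, 53466152 to 53657362, plus strand) was at its highest 16 h after inhibitor withdrawal. In RGd2 its FPKM was 12.05, 12.3 and 12.9 in 2i, 39.9, 40.6 and 40.9 at N16h and 10.4, 10.1 and 10.1 at N72h. All N16h libraries lay above all other RGd2 libraries, and the N72h libraries lay below those of 2i. On counts scaled by the spike-ins, *Rbpj* rose from 4469 ± 571 (SD, n = 3) in 2i to 12574 ± 224 (SD, n = 3) at N16h, a log2 fold change of 1.49 (standard error, SE, 0.21, edgeR adjusted p = 1.92e-07, by its quasi-likelihood test and the Benjamini-Hochberg method). From N16h to N72h the log2 fold change was −2.03 (SE 0.21, edgeR adjusted p = 8.69e-11). In Chiron alone the FPKM was 12.7, 12.3 and 12.7, and the log2 fold change to 2i of −0.16 did not pass the test (SE 0.20, edgeR adjusted p = 0.545).

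Over the 11 conditions, the mean FPKM of *Rbpj* was highest in *Etv5*-KO at N16h at 54.3 ± 2.07 (SD, n = 2), followed by RGd2 at N16h at 40.5 ± 0.543 (SD, n = 3) and *Etv5*-KO in 2i at 14.9 ± 0.492 (SD, n = 3). RGd2 in Chiron and in 2i came next with overlapping libraries, and then RGd2 in 2i for 5 passages and at N72h, which also overlapped. The last 4 places were held by lines with an *Rbpj* deletion. *Rbpj*-KO at N16h had 8.04 ± 0.442 (SD, n = 3), ETR-tKO 5.99 ± 0.994 (SD, n = 3), ER-dKO 5.66 ± 3.67 (SD, n = 3) and *Rbpj*-KO in 2i 3.16 ± 0.443 (SD, n = 3). Libraries of ER-dKO overlapped with those of ETR-tKO and of *Rbpj*-KO in 2i.

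**Figure D1:**
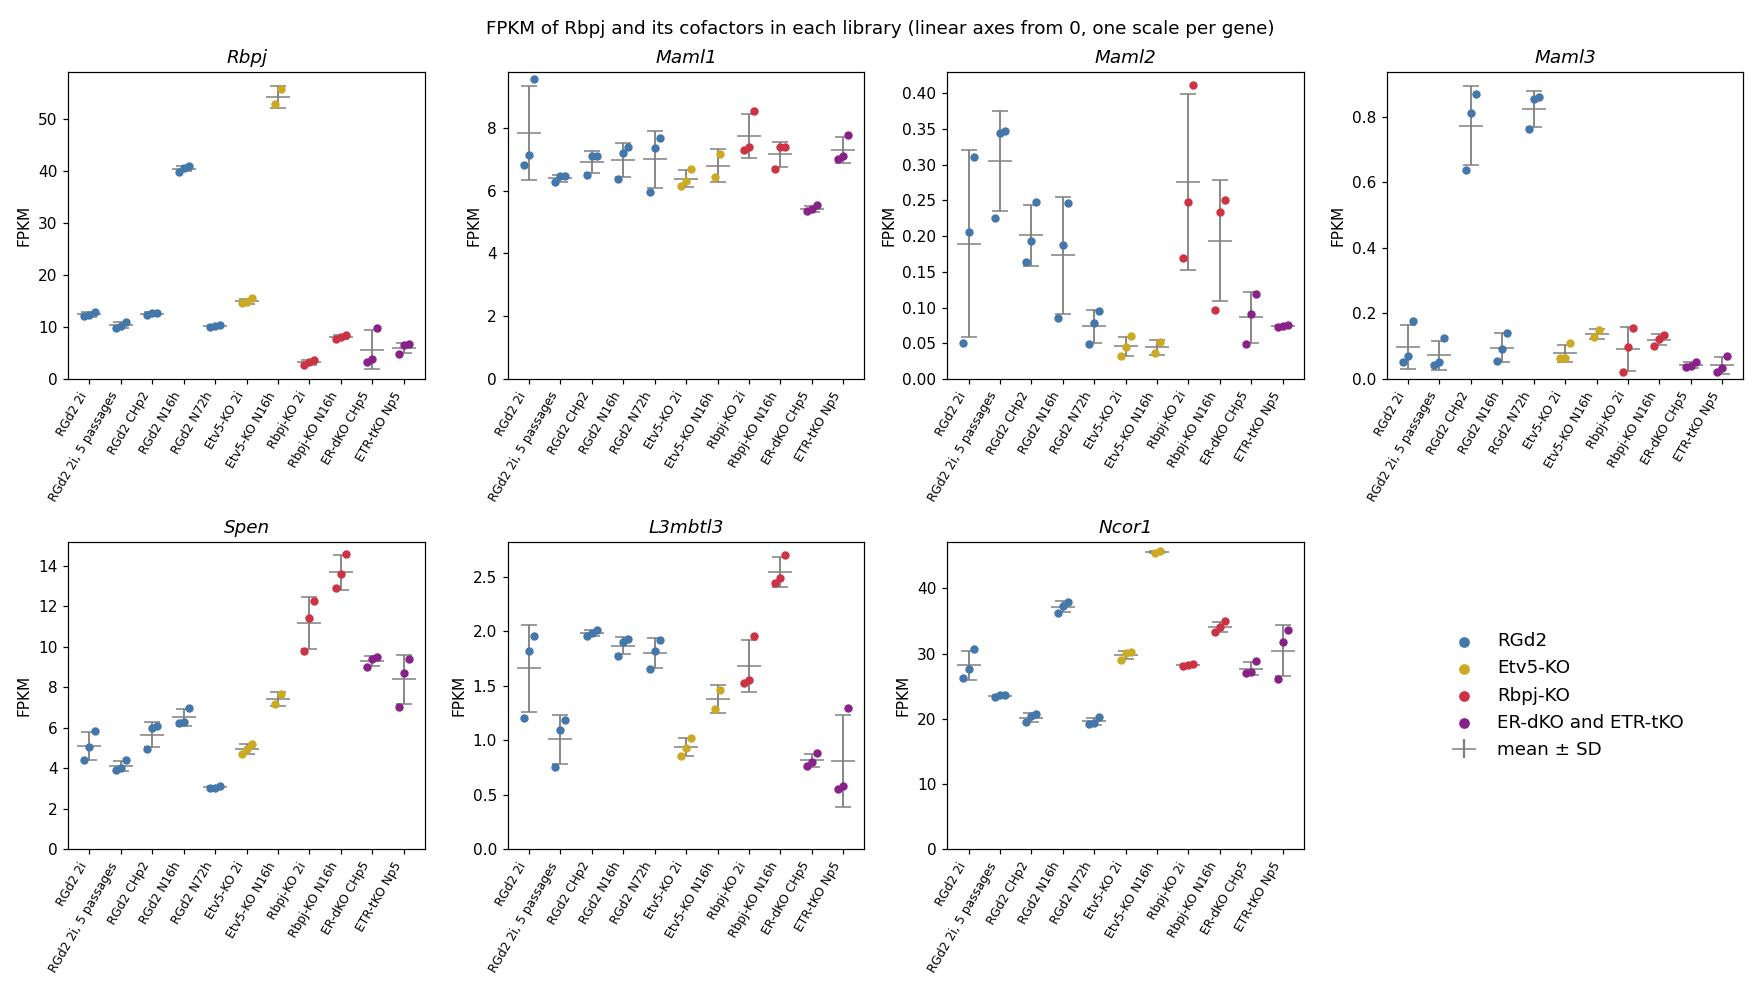
FPKM (vertical axes, a scale per gene) of the 7 genes in the 32 libraries by condition (horizontal axes), with points for libraries and bars for the mean ± SD. *Rbpj* is highest at N16h in RGd2 and *Etv5*-KO, *Spen* is highest in *Rbpj*-KO, and *Maml3* is highest in RGd2 at CHp2 and N72h, where it stays below 1 FPKM.

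*Rbpj* counts were lower in the *Rbpj*-KO lines but not at 0. The FPKM of the 3 lines was 2.72, 3.17 and 3.603 in 2i and 7.63, 8.51 and 7.98 at N16h, below every RGd2 library of the same condition. The counts that remained still rose on withdrawal, by a log2 fold change of 1.29 within *Rbpj*-KO (SE 0.21, edgeR adjusted p = 6.43e-06). This differed from the rise in RGd2 by −0.20 (SE 0.29, edgeR adjusted p = 0.772), and in that comparison of responses 4.03% of tested genes were called. A gene was called when its adjusted p was under 0.05 and a group compared averaged 1 FPKM or more.

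In the lines with several deleted genes, *Rbpj* counts differed from line to line. In ER-dKO the FPKM was 3.25, 3.84 and 9.88, where the last value, of line ERc9, lay within the range of RGd2 in 2i for 5 passages (10.2, 11.04 and 9.802). In ETR-tKO it was 4.85, 6.44 and 6.68, below all of these RGd2 libraries. The log2 fold change to RGd2 in 2i for 5 passages was −0.62 for ER-dKO and −0.55 for ETR-tKO (SE 0.21 and 0.21, edgeR adjusted p = 0.0176 and 0.0297). The call in ER-dKO was lost without replicate 10 or 11 (−0.34 and −0.39, edgeR adjusted p = 0.202 and 0.172) and that in ETR-tKO without replicate 13 (−0.39, edgeR adjusted p = 0.170). Without line ERc9 (replicate 12) the log2 fold change of ER-dKO was −1.31 (edgeR adjusted p = 1.32e-09). Without replicate 2 of RGd2 in 2i for 5 passages, neither *Rbpj* call held (−0.53 and −0.46, edgeR adjusted p = 0.0772 and 0.116). With DESeq2 they were also lost (DESeq2 adjusted p = 0.0596 and 0.0866). Medium and genotype differ together in both comparisons, so that their parts cannot be told apart.

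Only fragments with a unique match were counted, and fragments of *Rbpj* can match a near-identical copy. The pseudogene *Rbpj-ps3* had 29.8 ± 9.19 (SD, n = 3) spike-in-scaled counts in RGd2 in 2i and 136 ± 10.2 (SD, n = 3) at N16h, and in *Rbpj*-KO 4.58 ± 0.426 (SD, n = 3) in 2i and 10.3 ± 1.06 (SD, n = 3) at N16h. It was thus low where *Rbpj* was low, and its highest mean, 239.9 ± 12.6 (SD, n = 2), was again in *Etv5*-KO at N16h. Reads of the gene and of the pseudogene cannot be fully told apart, and values of both are uncertain to that extent. The pseudogene *Rbpj-ps1* and the paralog *Rbpjl* had at most 1 and 8 raw counts in any library.

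**Figure D2:**
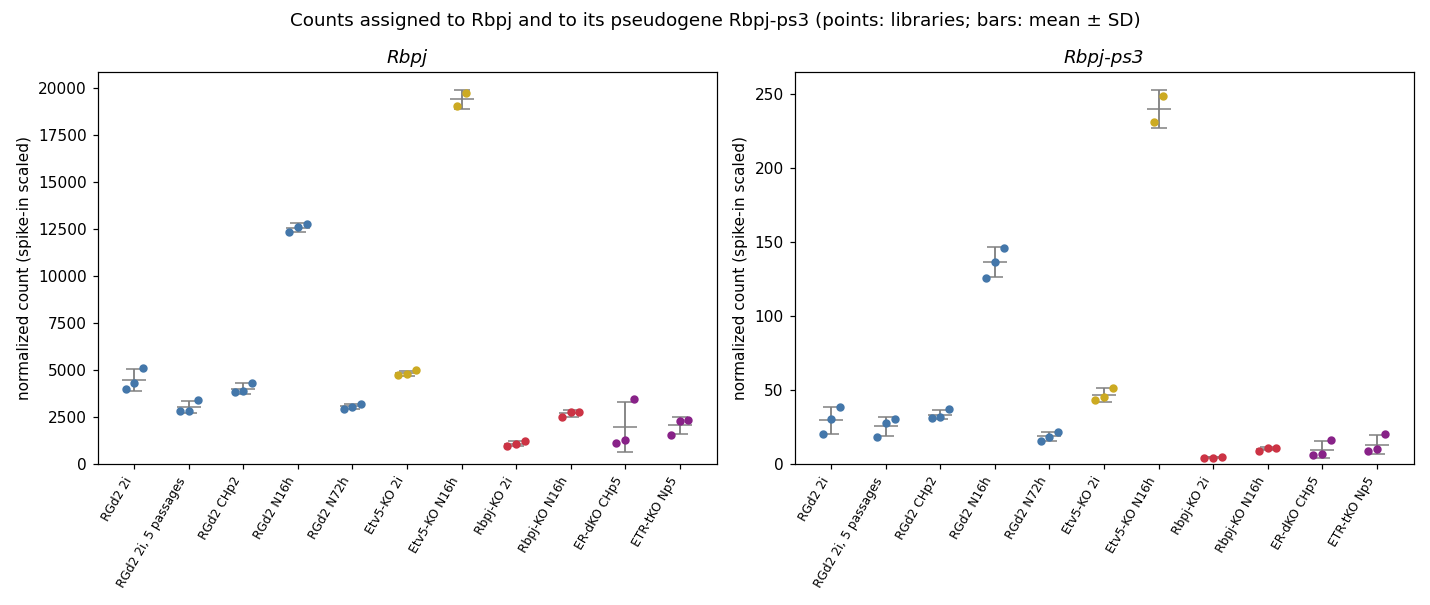
Spike-in-scaled counts (vertical axes) of *Rbpj* and of the pseudogene *Rbpj-ps3* by condition (horizontal axes), with a point per library and bars for the mean ± SD. Both are highest in *Etv5*-KO at N16h, next in RGd2 at N16h, and lowest in *Rbpj*-KO in 2i.

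Levels per length of the cofactors lay far apart. In RGd2 in 2i, *Ncor1* had a mean FPKM of 28.2, *Maml1* 7.85, *Spen* 5.101 and *L3mbtl3* 1.66, whereas *Maml2* had 0.189 and *Maml3* 0.0983. *Maml1* was the most abundant of the Mastermind-like genes in all 11 conditions, with mean FPKM between 5.43 in ER-dKO and 7.85 in RGd2 in 2i, and neighbours in that order overlapped except for ER-dKO. The highest mean FPKM of *Maml2* was 0.306, in RGd2 in 2i for 5 passages. *Maml2* and *Maml3* stayed under 1 FPKM everywhere, so that at most 5 of the 7 genes could be called, and changes of these genes are given without a call.

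On leaving 2i the members did not move together. At N16h, 46.0% of tested genes were called, among them 2 of the 5 members, *Rbpj* (higher) and *Maml1* (lower). *Maml1* (ENSMUSG00000050567.16, GRCm38 chromosome 11, 50255634 to 50292311, minus strand) had 1310, 1040 and 1280 spike-in-scaled counts in 2i and 1027, 859 and 940.4 at N16h, without overlap. In FPKM the *Maml1* groups overlapped, with 7.14, 6.82 and 9.58 in 2i and 7.40, 6.37 and 7.20 at N16h. Its log2 fold change was −0.36 (SE 0.12, edgeR adjusted p = 0.0191). It was not called with TMM normalization (−0.13, edgeR adjusted p = 0.310) nor without RGd2 2i replicate 31 or RGd2 N16h replicate 23 (−0.28 and −0.29, edgeR adjusted p = 0.110 and 0.106). Here the median of all tested genes was −0.23 with the spike-ins and 0.0034 with TMM, and over the 15 comparisons TMM moved this median by −0.48 to 0.34, so that small changes depend on the scaling. *Spen* and *Ncor1* had log2 fold changes of 0.098 and 0.17 and did not pass the test at N16h, but both were higher with TMM (0.34 and 0.40, edgeR adjusted p = 0.00907 and 1.56e-05) and without RGd2 2i replicate 31 (0.35 and 0.38, edgeR adjusted p = 0.0488 and 0.00740).

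At N72h the corepressors *Spen* and *Ncor1* were lower than in 2i and than at N16h. *Spen* (ENSMUSG00000040761.16, GRCm38 chromosome 4, 141467890 to 141538597, minus strand) had an FPKM of 5.83, 5.05 and 4.42 in 2i, 6.31, 6.24 and 6.99 at N16h and 3.11, 3.03 and 3.002 at N72h. Its N72h libraries lay below all others of the 11 conditions. The log2 fold change was −1.04 to 2i and −1.14 to N16h (SE 0.14 for both, edgeR adjusted p = 8.53e-08 and 1.12e-08). *Ncor1* (ENSMUSG00000018501.17, GRCm38 chromosome 11, 62316426 to 62458541, minus strand) had 30.7, 27.6 and 26.3 in 2i, 37.4, 36.2 and 37.9 at N16h and 19.3, 20.2 and 19.2 at N72h, and these groups did not overlap in FPKM. On spike-in-scaled counts *Ncor1* in 2i (8136 to 13046) overlapped with N16h (11325 to 12022), and N72h lay below both. Its log2 fold change was −0.80 to 2i and −0.96 to N16h (SE 0.12 for both, edgeR adjusted p = 3.87e-07 and 7.48e-09).

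In all, 4 of 5 members were called lower at N72h than in 2i and 3 of 5 lower than at N16h (*Rbpj*, *Spen* and *Ncor1*), with 66.0% and 60.9% of tested genes called in either direction. The other calls against 2i, *Rbpj* at −0.54 and *Maml1* at −0.39 (edgeR adjusted p = 0.0215 and 0.00666), were lost with TMM (−0.34 and −0.18) and without RGd2 N72h replicate 7 (−0.52 and −0.25). That of *Rbpj* was also lost without RGd2 2i replicate 31 (−0.43) or RGd2 N72h replicate 9 (−0.54, edgeR adjusted p = 0.0503). *L3mbtl3* (ENSMUSG00000039089.15, GRCm38 chromosome 10, 26274468 to 26375971, minus strand), with an FPKM of 1.82, 1.96 and 1.204 in 2i and 1.92, 1.65 and 1.82 at N72h, did not pass the test (−0.23), but was lower without RGd2 2i replicate 33 (−0.43, edgeR adjusted p = 0.0415). The comparisons with 2i share their control libraries.

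*Maml3* (ENSMUSG00000061143.15, GRCm38 chromosome 3, 51685907 to 52105076, minus strand) rose from a very low level. Its spike-in-scaled counts in RGd2 were 24.2, 14.5 and 44.4 in 2i, 14.1, 36.04 and 22.5 at N16h, 201, 199.9 and 212 at N72h and 228, 222 and 161 in Chiron. The N72h and Chiron libraries lay above all others of the 11 conditions. The log2 fold change to 2i was 3.14 at N72h and 3.14 in Chiron (SE 0.39 and 0.39, edgeR adjusted p = 5.94e-09 and 1.42e-08). Markers of other cell types moved in the same libraries. The summed FPKM of 3 mesoderm markers (*T*, *Mixl1* and *Eomes*) was 7.88 to 9.76 in 2i, 69.8 to 73.3 in Chiron and 0.621 to 0.886 at N72h, and that of 3 fibroblast markers (*Col1a1*, *Col1a2* and *Thy1*) was 0.362 to 1.08, 0.534 to 0.845 and 5.53 to 6.46. Of the mesoderm markers, 2 reached 1 FPKM in Chiron or 2i, and 1 was called higher and 1 lower in Chiron. Of the fibroblast markers, 1 reached 1 FPKM at N72h or in 2i and was called higher at N72h. The 5 formative markers summed to 124.8 to 146.3 in Chiron. Sums of 2 trophoblast markers were 4.20 to 5.33 in 2i, 5.33 to 8.09 in Chiron and 0.0114 to 0.0822 at N72h. Those of 3 endoderm markers were 0.167 to 1.62, 0.722 to 1.36 and 1.59 to 6.83. Sums of 3 neural markers were 0.211 to 0.276 in 2i, 0.847 to 1.09 in Chiron and 0.487 to 0.609 at N72h, where 0 of them averaged 1 FPKM. At N16h the neural sums were 2.09 to 2.89. The part of these markers in the rise of *Maml3* was not tested. *Maml2* (ENSMUSG00000031925.17, GRCm38 chromosome 9, 13297957 to 13709388, plus strand) had 68.1, 37.4 and 8.08 in 2i, where replicate 33 stood apart, and 7.26, 15.6 and 12.2 at N72h. With these overlapping groups its log2 fold change was −1.90 (SE 0.48, edgeR adjusted p = 7.81e-04), and raw counts of *Maml2* were between 2 and 80 per library.

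**Figure D3:**
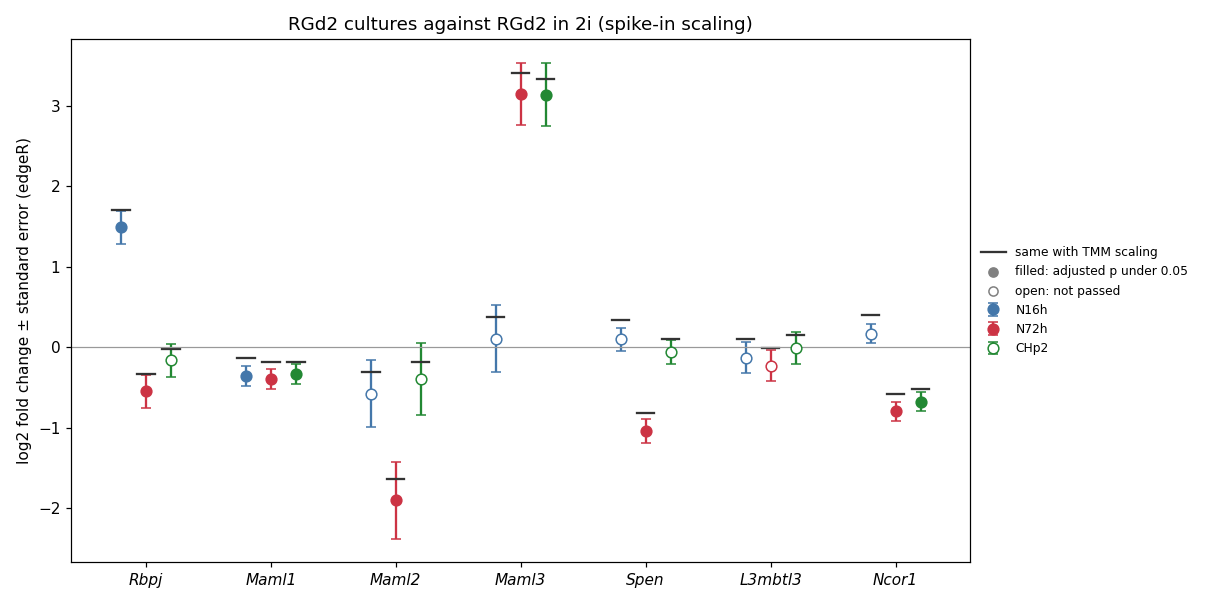
Log2 fold change (vertical axis) of the 7 genes (horizontal axis) in RGd2 at N16h, N72h and CHp2 against RGd2 in 2i, with points for the spike-in fit and bars for the SE (filled, edgeR adjusted p under 0.05; open, not passed) and dashes for the value with TMM. *Rbpj* is raised at N16h, *Maml3* at N72h and CHp2, and *Spen* is lowered at N72h.

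In Chiron alone, with 55.5% of tested genes called, 2 of 5 members were lower than in 2i. *Ncor1* had an FPKM of 20.4, 19.4 and 20.7, below all 2i libraries, and a log2 fold change of −0.67 (SE 0.12, edgeR adjusted p = 1.16e-05). *Maml1* had −0.33 (edgeR adjusted p = 0.0260), a call lost with TMM (−0.18) and without RGd2 2i replicate 31, CHp2 replicate 5 or CHp2 replicate 6 (−0.25, −0.34 and −0.27). In 2i for 5 passages, 5 of 5 members were lower than in 2i, where 52.3% of tested genes were called and their median was −0.35. The log2 fold changes were −1.07 for *L3mbtl3*, −0.65 for *Spen*, −0.58 for *Ncor1*, −0.57 for *Maml1* and −0.57 for *Rbpj*. With TMM the first 3 of these still passed the test (−0.72, −0.30 and −0.24), and *Maml1* and *Rbpj* did not (−0.24 and −0.24). The *Rbpj* call was also lost without RGd2 2i replicate 31 or replicate 1 or 3 of the 5-passage cells (−0.45, −0.53 and −0.52).

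*Spen* was higher in every group with an *Rbpj* deletion. In *Rbpj*-KO its FPKM was 12.3, 9.77 and 11.4 in 2i and 13.6, 12.9 and 14.6 at N16h, against the RGd2 values of 2i and N16h given above. The groups did not overlap, and in FPKM the *Rbpj*-KO libraries were the highest of all 32. On spike-in-scaled counts *Rbpj*-KO 2i replicate 29 (3633) lay below ETR-tKO replicate 14 (3681) and ER-dKO replicates 10 and 12 (3671 and 3663). The log2 fold change was 1.04 in 2i and 1.18 at N16h (SE 0.14 for both, edgeR adjusted p = 9.10e-07 and 2.92e-08). Over all alternatives run it stayed between 0.87 and 1.30 in 2i and between 1.02 and 1.24 at N16h, past the threshold in each. The N16h response of *Spen* differed by 0.14 between *Rbpj*-KO and RGd2 and did not pass the test (SE 0.20, edgeR adjusted p = 0.755).

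In ER-dKO the FPKM of *Spen* was 9.497, 8.996 and 9.38 and in ETR-tKO 7.04, 9.41 and 8.701, against 3.92, 3.997 and 4.42 in RGd2 in 2i for 5 passages and 6.095, 5.97 and 4.93 in RGd2 in Chiron. In FPKM all 6 mutant libraries lay above all RGd2 libraries. On spike-in-scaled counts ETR-tKO replicate 13 (2503) lay below RGd2 2i replicate 31 (2727). The log2 fold changes to RGd2 in 2i for 5 passages were 1.43 and 1.26 (SE 0.14 for both, edgeR adjusted p = 2.32e-10 and 2.75e-09), or 1.25 and 1.03 with TMM. ERc9 had its *Spen* level between those of the other ER-dKO lines. Its *Rbpj* FPKM of 9.88 lay within the range of RGd2 in 2i for 5 passages, but below all RGd2 libraries in Chiron (12.7, 12.3 and 12.7). On spike-in-scaled counts its *Rbpj* (3489) lay above RGd2 in 2i for 5 passages (2830, 3385 and 2853). In *Etv5*-KO in 2i, where *Rbpj* was not targeted, *Spen* had 4.93, 4.699 and 5.19, within the range of RGd2, and its log2 fold change of −0.24 did not pass the test (edgeR adjusted p = 0.208). Without RGd2 2i replicate 33 it was −0.41 and was called lower (edgeR adjusted p = 0.0123). At N16h *Spen* had 7.68 and 7.16 in *Etv5*-KO, above the RGd2 libraries of N16h and overlapping with ETR-tKO, and its log2 fold change of 0.39 did not pass the test (edgeR adjusted p = 0.0590). It passed without the filter on low counts and with only the libraries compared in the fit (edgeR adjusted p = 0.0242 and 0.00153).

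The letters TGGGAA, the core of the RBPJ motif, were searched on both strands from position −250 to position 50 around annotated starts (RefSeq, GRCm38). All 7 genes matched, with 11 windows, of which 6 windows of 5 genes held the letters, as did 25.6% of all 32851 windows. The *Rbpj* windows 53590096 to 53590395 and 53590236 to 53590535 overlap and share 1 site, so the 6 windows are not separate cases. GTGGGAA, which contains TGGGAA, was in 1 of the 11, that of *Spen*, and in 6.38% of all. The bases before the start are shown for *Spen*, which changed with the *Rbpj* genotype, and for *Rbpj* itself, on the gene's strand, with TGGGAA or its reverse complement in capitals.
Spen, chr4:141538598-141538665, minus strand: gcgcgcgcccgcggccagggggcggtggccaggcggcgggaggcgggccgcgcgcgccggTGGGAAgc
Rbpj, chr5:53590137-53590345, plus strand: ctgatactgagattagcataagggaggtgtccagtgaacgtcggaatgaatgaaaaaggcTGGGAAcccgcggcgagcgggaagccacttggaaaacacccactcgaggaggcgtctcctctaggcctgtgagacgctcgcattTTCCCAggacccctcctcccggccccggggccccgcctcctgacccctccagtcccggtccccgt
Counted from the start of the window shown, the letters begin at −8 in *Spen* and at −149 and −65 in *Rbpj*. The *Rbpj* site at −65 lies at −205 from the start of the overlapping window. A match of letters is a description and not a binding site.

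The other members changed less in *Rbpj*-KO. In 2i, 11.4% of tested genes were called, and 2 of 5 members, *Spen* (higher) and *Rbpj* (lower, −2.02). *Rbpj* is the targeted gene, so its call here, at N16h, in ER-dKO and in ETR-tKO is not to be set against the share of all tested genes. *Maml1*, *Ncor1* and *L3mbtl3* had log2 fold changes of −0.048, −0.065 and −0.12 there and did not pass the test. At N16h, 22.2% were called, and *Spen* and *L3mbtl3* were higher and *Rbpj* lower (−2.22). *L3mbtl3* had an FPKM of 1.78, 1.905 and 1.93 in RGd2 and 2.49, 2.703 and 2.44 in *Rbpj*-KO, its highest libraries of all 32. Its log2 fold change was 0.55 (SE 0.19, edgeR adjusted p = 0.0376). The call was lost with TMM (0.40, edgeR adjusted p = 0.148) and without any 1 of the 6 libraries, RGd2 N16h replicates 22, 23 and 24 and *Rbpj*-KO N16h replicates 19, 20 and 21 (0.53 to 0.58, edgeR adjusted p = 0.0612 to 0.105).

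Within *Rbpj*-KO, 27.9% of tested genes were called from 2i to N16h, and of the members *Rbpj* and *L3mbtl3*, both higher. *L3mbtl3* went from 1.53, 1.55 and 1.95 FPKM to the N16h values above (log2 fold change 0.54, SE 0.19, edgeR adjusted p = 0.0371). Its call was lost without *Rbpj*-KO 2i replicate 28 or 29 or *Rbpj*-KO N16h replicate 19, 20 or 21 (0.47 to 0.58, edgeR adjusted p = 0.0568 to 0.138). In the comparison of N16h responses between *Rbpj*-KO and RGd2, 0 of 5 members were called by edgeR, and 1 had an unadjusted p under 0.05, *L3mbtl3* (difference 0.67, edgeR unadjusted p = 0.0190). Without RGd2 2i replicate 33 that of *L3mbtl3* was 0.87 and was called (edgeR adjusted p = 0.0236).

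In ER-dKO, 42.4% of tested genes were called against RGd2 in 2i for 5 passages, with *Spen* and *Ncor1* higher and *Rbpj* lower. In ETR-tKO, 47.3% were called, with *Spen*, *Ncor1* and *Maml1* higher and *Rbpj* lower. *Ncor1* had an FPKM of 23.4, 23.6 and 23.6 in RGd2, 28.8, 27.00 and 27.2 in ER-dKO and 26.04, 33.6 and 31.8 in ETR-tKO. Its log2 fold changes were 0.49 and 0.61 (SE 0.12 for both, edgeR adjusted p = 0.00144 and 7.56e-05), beside medians of all tested genes of 0.21 and 0.23. *Maml1* in ETR-tKO had 0.42 (edgeR adjusted p = 0.00630), and 0.20 with TMM, which did not pass. *Maml2*, below 1 FPKM, was lower in both (−1.54 and −1.79, edgeR adjusted p = 0.00584 and 0.00191). *L3mbtl3* differed between the ETR-tKO lines, with an FPKM of 1.301, 0.550 and 0.576, the first being line (ETc1)Rc53, replicate 13. Without replicate 13, *L3mbtl3* was lower than in RGd2 (−0.61, edgeR adjusted p = 0.0124). That fit keeps only (Tc1)ERc2 and (Tc1)ERc10 of ETR-tKO, which may not be independent.

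**Figure D4:**
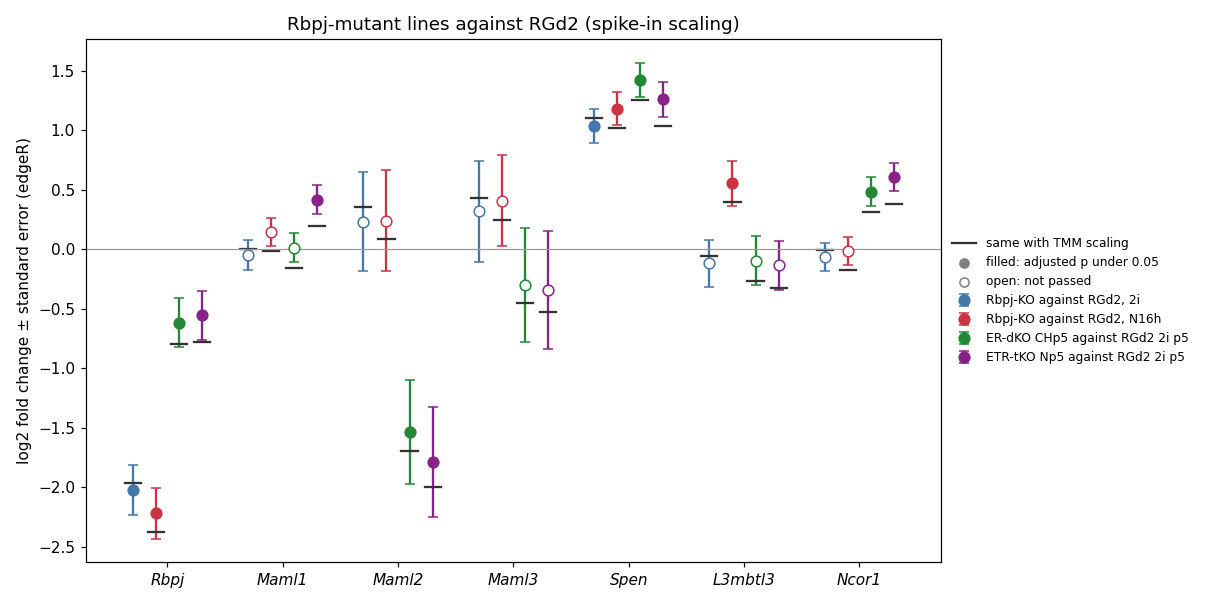
Log2 fold change (vertical axis) of the 7 genes (horizontal axis) in *Rbpj*-KO against RGd2 in 2i and at N16h, and in ER-dKO and ETR-tKO against RGd2 in 2i for 5 passages, with points for the spike-in fit and bars for the SE (filled, edgeR adjusted p under 0.05; open, not passed) and dashes for the value with TMM. *Spen* lies between 1.04 and 1.43 in *Rbpj*-KO, ER-dKO and ETR-tKO.

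In *Etv5*-KO in 2i, *L3mbtl3* and *Maml2* were lower. *L3mbtl3* had an FPKM of 0.932, 0.854 and 1.02, below every RGd2 library in 2i, and a log2 fold change of −1.07 (SE 0.20, edgeR adjusted p = 6.86e-05), which lay between −1.27 and −0.82 over the alternatives. *Maml2* had 10.4, 7.599 and 5.05 spike-in-scaled counts and a log2 fold change of −2.47 (SE 0.48, edgeR adjusted p = 1.18e-04), with RGd2 2i replicate 33 inside its range. In this comparison 34.0% of tested genes were called, and 2 of 5 members, *L3mbtl3* and *Maml1*, both lower. *Maml1* (−0.43, edgeR adjusted p = 0.00796) was not called with TMM (−0.19) or without RGd2 2i replicate 31 (−0.34, edgeR adjusted p = 0.0661). *Rbpj* had an FPKM of 14.7, 14.6 and 15.5, above all RGd2 libraries in 2i, but its spike-in-scaled counts overlapped and the log2 fold change of 0.11 did not pass the test.

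At N16h, with 32.5% of tested genes called and a median of 0.23, *Rbpj* and *Ncor1* were higher in *Etv5*-KO than in RGd2. *Rbpj* had an FPKM of 55.7 and 52.8 and *Ncor1* 45.4 and 45.7, all above the RGd2 libraries. The log2 fold changes were 0.63 and 0.50 (SE 0.22 and 0.13, edgeR adjusted p = 0.0337 and 0.00398). With TMM, *Ncor1* still passed (0.26) and *Rbpj* did not (0.39). The call of *Rbpj* was also lost without any 1 of the 5 libraries, RGd2 N16h replicates 22, 23 and 24 and *Etv5*-KO N16h replicates 17 and 18 (0.60 to 0.65), and that of *Ncor1* without *Etv5*-KO N16h replicate 18 (0.43). *Maml2* was lower (−1.82, edgeR adjusted p = 0.0109), but not with the clonal line as a block (−1.51, edgeR adjusted p = 0.0565) nor without RGd2 N16h replicate 23 or *Etv5*-KO N16h replicate 17 or 18 (−1.48, −2.02 and −1.64).

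Within *Etv5*-KO, 40.7% of tested genes were called from 2i to N16h, and 4 of 5 members were higher. The log2 fold changes were 2.00 for *Rbpj*, 0.76 for *Ncor1*, 0.73 for *Spen* and 0.71 for *L3mbtl3*, the last lost with TMM (0.45) and without *Etv5*-KO N16h replicate 18 (0.54). When the N16h response of *Etv5*-KO was compared with that of RGd2, 37.3% of tested genes were called, and 4 of 5 members, *Maml1*, *Spen*, *L3mbtl3* and *Ncor1*, all with a higher response in *Etv5*-KO. Their values stand in the closing section, since 0 of the 4 passed with TMM.

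Genes of the pathway were counted from fixed lists. Of 9 partners of the coactivators, such as the acetyltransferase *Ep300*, 0 were called by edgeR or by DESeq2 in *Rbpj*-KO in 2i and 0 at N16h, and 0 had an unadjusted edgeR p under 0.05 in either. Of all tested genes, 11.4% were called in 2i and 22.2% at N16h, and a list of 9 genes is short beside these shares. Of 20 corepressor partners above 1 FPKM, 1 was lower in *Rbpj*-KO in 2i, beside 11.4% of all tested genes called. It was *Sap30* of the SIN3 complex (−0.33, edgeR adjusted p = 0.0318). At N16h 2 of 20 were higher and 1 lower, beside 22.2% of all tested genes called, and with TMM 1 was higher and 2 lower. Among them, *Rbbp8* was higher (0.34) and *Ctbp2*, a corepressor, was lower (−0.33, edgeR adjusted p = 0.0192). In RGd2 at N16h against 2i, 1 of these 20 was higher and 9 lower, beside 46.0% of all tested genes called, with a median of −0.27 over the list and −0.23 over all tested genes. With TMM 4 were higher and 7 lower. *Fhl1* (−1.32) had the smallest adjusted p of the lower ones.

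Of 8 Notch target genes, 4 averaged 1 FPKM or more in *Rbpj*-KO or RGd2. Of these, 3 of 4 were higher in *Rbpj*-KO in 2i and 4 of 4 at N16h, beside 11.4% and 22.2% of all tested genes called. The higher group decides the FPKM minimum in every comparison, so a target can enter through the mutant alone. Only 2 of the 8 reached 1 FPKM in RGd2 or *Etv5*-KO at N16h. The others of the 4 entered at N16h only through *Rbpj*-KO, so these counts are no test of the list. *Nrarp*, a feedback inhibitor of Notch signalling, had a mean of 15.4 spike-in-scaled counts in RGd2 and 373 in *Rbpj*-KO at N16h (4.63, edgeR adjusted p = 1.92e-18). *Hes1*, a transcriptional repressor, had 80.8 and 601 (2.91, edgeR adjusted p = 2.65e-17). In ER-dKO 3 of 4 and in ETR-tKO 4 of 4 targets were higher (3 in each with TMM), beside 42.4% and 47.3% of all tested genes called. In RGd2, 3 of 3 were lower at N16h than in 2i, beside 46.0%. In *Etv5*-KO at N16h, where the *Rbpj* level was highest of all, 1 of 2 was higher than in RGd2, and 4 of 4 had a higher N16h response than in RGd2 (3 with TMM), beside 32.5% and 37.3%. Of the 4 receptors, all were lower at N16h in RGd2, beside 46.0% of all tested genes called. In *Rbpj*-KO at N16h 3 receptors were higher than in RGd2, beside 22.2%, *Notch4* by a log2 fold change of 1.51. Of 3 ligands above 1 FPKM, *Jag1* was higher (1.52) and *Dll1* and *Jag2* were lower (−3.02 and −0.79) in *Rbpj*-KO at N16h, beside the same 22.2%. Of 19 genes for receptor processing, 5 were higher and 3 lower in that comparison, in which 22.2% of all tested genes were called.

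Among 13502 genes that averaged 1 FPKM or more in any of the 7 conditions with intact *Rbpj*, the 5 whose condition means were most like those of *Rbpj* were *L1td1* (Pearson r 0.991), *Rbpj-ps3* (0.988), *Prss46* (0.988), *Smc3* (0.987) and *Aff4* (0.985). These r describe 7 points that share their scaling, and they do not measure the size of a change. *Prss46* averaged 0 counts in RGd2 in 2i for 5 passages, in Chiron and at N72h, and 37.6 at N16h. *Smc3* went only from 6447 in RGd2 in 2i to 7389 at N16h. Reads of *Rbpj-ps3* cannot be fully told apart from those of *Rbpj*. With TMM, *Rbpj-ps3* and *Prss46* were again among the first 5, and r of *Smc3* was 0.837. Among the members, r was taken over all 11 conditions. These include the lines with an *Rbpj* deletion, so r there is not to be set beside the values over 7 conditions. It was highest with *Rbpj* for *Ncor1* (0.455), and the highest r of any pair was that of *Spen* and *Ncor1* (0.652). With TMM that r was 0.556, and *Maml3* and *L3mbtl3* had a higher one (0.575).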

How the data were processed

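RNA of 32 libraries was sequenced after ribosomal RNA depletion with a strand-specific kit (the molecule label reads polyA RNA). According to the methods, the authors used Trim Galore for trimming and TopHat2 for alignment to GRCm38/mm10 plus ERCC spike-ins, guided by Gencode M14 gene models, and made the deposited raw counts per gene with featureCounts from strand-specific, primary and unique matches. FPKM and log2 fold changes were computed here from the deposited counts: FPKM as counts per kilobase of the deposited gene length scaled to the counts on genes, and log2 fold changes by edgeR 4.0.16 (R 4.3.3). The quasi-likelihood test was fitted to all 32 libraries with a coefficient per condition and size factors from the 52 of 92 spike-ins above 0 in every library, on 18892 genes left by filterByExpr, with Benjamini-Hochberg adjustment over all of them. The percentage of genes called is over those with a mean FPKM of at least 1 in a group compared. Standard errors are the fold change divided by the square root of F. Symbols could not be matched for 193 of 51826 genes, with 0.02589% of counts. Libraries of the same clonal line pair by origin, and the correlation of their deviations from group means was −0.05 to 0.21.

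Groups follow the sample labels. Alternatives were TMM, gene-based median-of-ratios and total spike-in scaling, DESeq2 1.42.0, no filter on low counts, no FPKM minimum, a fold of 1.5, only the libraries compared, the clonal line as a block, and leaving out each library. The 7 genes and all gene lists were chosen with earlier results of these data known. List genes named are among the 3 with the smallest adjusted p of those called, and 1 gene of the lists is not reported here by name. Medians of lists stand in for tests of lists. Precision rests on 2 or 3 libraries a group and on depths of 5986857 to 71439411 counts (median 29940141). Guides were matched to GRCm38 transcripts. The fits were tested on simulated counts.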

Additional observations from a re-analysis of the deposited data

Results flagged for a closer look

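The N16h responses of 4 members differed between *Etv5*-KO and RGd2 in a test of the difference itself (edgeR's quasi-likelihood test on the interaction, all positive, that is higher in *Etv5*-KO). The difference in log2 fold change was 0.59 for *Maml1*, 0.63 for *Spen*, 0.84 for *L3mbtl3* and 0.59 for *Ncor1* (edgeR adjusted p = 0.0147, 0.0229, 0.0291 and 0.0121). The median of all tested genes in this comparison was 0.44 with the spike-ins and −0.044 with TMM, and with TMM the 4 differences were 0.11, 0.14, 0.35 and 0.11, none of which passed the test (edgeR adjusted p = 0.693, 0.630, 0.524 and 0.578). Without RGd2 2i replicate 31 they were 0.51, 0.38, 0.66 and 0.38 and did not pass. Without *Etv5*-KO N16h replicate 18 they were 0.61, 0.62, 0.67 and 0.52 and did not pass. *Maml1* and *Spen* were also lost without *Etv5*-KO N16h replicate 17 (0.57 and 0.64), and *L3mbtl3* without RGd2 2i replicate 32 or *Etv5*-KO 2i replicate 26 (0.76 and 0.78). The response of *Rbpj* differed by 0.52 and did not pass (edgeR adjusted p = 0.194).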

How the results depend on the processing

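Of 1428 alternative values of the 105 member fold changes, 1218 kept their direction and side of the threshold, 97 lost the threshold, 21 gained it and 92 changed sign, none of the last passing the test (lowest adjusted p 0.109 from edgeR or DESeq2). The causes were not tested. The clonal line as replicate block changed no count of members called. Leaving out an *Etv5*-KO N16h library leaves 1, assumed to vary like the other groups. Of 301 alternatives of mean levels, 25 moved by more than the SD, all under spike-in scaling of FPKM. The rest include means without 1 library, which in groups of 2 or 3 cannot move by the SD. The 301 thus do not measure how stable the levels are. Every change in the number of members called is given for the alternatives that follow. With TMM the number of members called became 3 in RGd2 N16h, 2 in RGd2 N72h, 1 in CHp2, 3 in 5 passages, 2 in *Rbpj*-KO N16h, 1 in *Etv5*-KO 2i, 1 in *Etv5*-KO N16h, 3 in ETR-tKO, 4 in *Rbpj*-KO withdrawal, 3 in *Etv5*-KO withdrawal and 0 in *Etv5*-KO response. With gene-based median-of-ratios factors the number of members called became 3 in RGd2 N16h, 2 in RGd2 N72h, 1 in CHp2, 3 in 5 passages, 2 in *Rbpj*-KO N16h, 1 in *Etv5*-KO 2i, 1 in *Etv5*-KO N16h, 3 in ETR-tKO, 4 in *Rbpj*-KO withdrawal, 3 in *Etv5*-KO withdrawal and 0 in *Etv5*-KO response. With only the libraries compared in the fit the number of members called became 1 in RGd2 N16h, 3 in RGd2 N72h, 1 in CHp2, 1 in *Etv5*-KO 2i, 3 in *Etv5*-KO N16h, 3 in *Rbpj*-KO withdrawal and 1 in *Etv5*-KO response. With a fold of at least 1.5 the number of members called became 1 in RGd2 N16h, 2 in RGd2 N72h, 1 in CHp2, 2 in 5 passages, 2 in *Rbpj*-KO N16h, 1 in *Etv5*-KO 2i, 1 in *Etv5*-KO N16h, 2 in ER-dKO, 2 in ETR-tKO and 1 in *Rbpj*-KO withdrawal. With DESeq2 the number of members called became 3 in RGd2 N72h, 4 in 5 passages, 1 in *Etv5*-KO N16h, 2 in ER-dKO and 3 in ETR-tKO. Without the FPKM minimum the number of members called became 6 in RGd2 N72h, 5 in N72h to N16h, 3 in CHp2, 3 in *Etv5*-KO 2i, 3 in *Etv5*-KO N16h, 4 in ER-dKO and 5 in ETR-tKO. With total spike-in scaling the number of members called became 2 in *Rbpj*-KO N16h. Without the filter on low counts the number of members called became 3 in *Etv5*-KO N16h and 5 in *Etv5*-KO response. Leaving out 1 library gave 1 to 3 members called in RGd2 N16h, 2 to 5 in RGd2 N72h, 3 to 3 in N72h to N16h, 1 to 2 in CHp2, 4 to 5 in 5 passages, 2 to 2 in *Rbpj*-KO 2i, 2 to 2 in *Rbpj*-KO N16h, 1 to 3 in *Etv5*-KO 2i, 0 to 1 in *Etv5*-KO N16h, 2 to 3 in ER-dKO, 3 to 4 in ETR-tKO, 1 to 2 in *Rbpj*-KO withdrawal, 3 to 4 in *Etv5*-KO withdrawal, 0 to 1 in *Rbpj*-KO response and 0 to 4 in *Etv5*-KO response. With TMM, log2 fold changes of opposite sign were *L3mbtl3* 0.10 in RGd2 N16h and 0.16 in CHp2, *Spen* 0.10 in CHp2, 0.0083 in *Etv5*-KO 2i and −0.079 in *Rbpj*-KO response, *Maml1* 0.0050 in *Rbpj*-KO 2i, −0.013 in *Rbpj*-KO N16h, −0.075 in *Etv5*-KO N16h, −0.15 in ER-dKO, −0.016 in *Etv5*-KO withdrawal and −0.018 in *Rbpj*-KO response, *Maml3* 0.15 in *Etv5*-KO 2i and −0.18 in *Rbpj*-KO response, *Ncor1* 0.15 in *Etv5*-KO 2i and −0.17 in *Rbpj*-KO response and *Maml2* −0.16 in *Etv5*-KO withdrawal and −0.27 in *Rbpj*-KO response. With gene-based median-of-ratios factors, log2 fold changes of opposite sign were *L3mbtl3* 0.12 in RGd2 N16h, 0.018 in RGd2 N72h and 0.20 in CHp2, *Rbpj* 0.018 in CHp2, *Spen* 0.14 in CHp2 and −0.058 in *Rbpj*-KO response, *Maml1* −0.0073 in *Rbpj*-KO N16h, −0.077 in *Etv5*-KO N16h and −0.20 in ER-dKO, *Maml3* 0.12 in *Etv5*-KO 2i and −0.16 in *Rbpj*-KO response, *Ncor1* 0.11 in *Etv5*-KO 2i and −0.14 in *Rbpj*-KO response and *Maml2* −0.12 in *Etv5*-KO withdrawal and −0.25 in *Rbpj*-KO response. With the clonal line as replicate block, log2 fold changes of opposite sign were *L3mbtl3* 0.012 in CHp2 and *Maml2* −0.012 in *Rbpj*-KO response. With only the libraries compared in the fit, the log2 fold change of *L3mbtl3* was 0.049 in CHp2. With DESeq2, log2 fold changes of opposite sign were *L3mbtl3* 0.017 in CHp2 and *Maml2* −0.0091 in *Rbpj*-KO response. Signs also changed when 1 library was left out, with ranges for *Maml2* of −0.91 to 0.035 in RGd2 N16h, −0.68 to 0.23 in CHp2, −0.20 to 0.71 in 5 passages, −0.14 to 0.85 in *Rbpj*-KO 2i, −0.060 to 0.59 in *Rbpj*-KO N16h, −0.16 to 0.37 in *Etv5*-KO withdrawal, −0.60 to 0.38 in *Rbpj*-KO response, for *L3mbtl3* of −0.33 to 0.052 in RGd2 N16h, −0.21 to 0.18 in CHp2, −0.31 to 0.073 in *Rbpj*-KO 2i, −0.27 to 0.057 in ER-dKO, −0.61 to 0.047 in ETR-tKO, for *Maml3* of −0.36 to 0.39 in RGd2 N16h, −0.26 to 0.64 in *Rbpj*-KO 2i, −0.52 to 0.13 in *Etv5*-KO 2i, −0.54 to 0.11 in ER-dKO, −0.96 to 0.075 in ETR-tKO, −0.12 to 0.78 in *Rbpj*-KO withdrawal, −0.23 to 0.67 in *Rbpj*-KO response, for *Spen* of −0.070 to 0.35 in RGd2 N16h, −0.23 to 0.20 in CHp2, −0.41 to 0.019 in *Etv5*-KO 2i, −0.11 to 0.31 in *Rbpj*-KO response, for *Maml1* of −0.14 to 0.099 in N72h to N16h, −0.15 to 0.035 in *Rbpj*-KO 2i, −0.015 to 0.056 in ER-dKO and for *Ncor1* of −0.20 to 0.15 in *Rbpj*-KO 2i, −0.030 to 0.0028 in *Rbpj*-KO N16h, −0.23 to 0.12 in *Etv5*-KO 2i, −0.16 to 0.19 in *Rbpj*-KO response.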
